A study of Sus scrofa with 6 samples.

Results

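The genes described here are 59 of the 29861 genes measured in porcine oocytes whose mRNA level was lower after heat stress and higher again when nicotinamide mononucleotide (NMN) was present during the heat. They were chosen by their own values in the deposited expression table. A gene was taken if its mean level over the 6 samples was 1 FPKM or more (FPKM, fragments scaled by transcript length and by how many fragments of the library were mapped), if both heat-stressed samples lay below all 4 other samples, and if the log2 of the ratio of group means, each with 1 FPKM added, was 0.3 or more both for control over heat-stressed and for NMN-supplemented over heat-stressed oocytes. Of the 4713 genes with a mean of 1 FPKM or more, 271 (5.75%) had both heat-stressed samples below all others, and 94 met every number of the rule. Of these 94, 35 were dropped by name, since their symbols start with 1 of 18 prefixes of gene families or of provisional genes. Of the 35, 28 carry the provisional prefix LOC. The prefixes were LOC, RPL, RPS, MRP, PSM, NDUF, ZNF, SLC, RAB, KIF, DNAJ, UBE2, USP, MED, KDM, PLK, CSNK and CDKN. Genes so named could not be among the 59 and are left out of the counts on the gene lists below. The 59 genes are 1.69% of the 3481 genes with a mean of 1 FPKM or more whose names were not left out.

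The 3 groups were control oocytes, heat-stressed oocytes, and oocytes that received NMN during the same heat stress, with 2 samples each. All were porcine oocytes from abattoir ovaries, matured in culture within their cumulus cells, and the stressed groups spent 24 h of that culture at a raised temperature, in the third group with NMN in the medium. The labels place the samples at the germinal vesicle (GV) stage at 24 h, whereas the methods speak of metaphase II oocytes, so the stage cannot be settled here. The labels give no NMN dose and no genotype or age, and oocytes of a group were pooled for RNA extraction. Nothing in the sources says that the samples of a group came from separate cultures, so spreads and p-values measure only the variation between these samples.

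A fully grown oocyte is largely silent in transcription, and its mRNA store, laid down during growth, is translated or degraded in a programmed way as meiosis proceeds. A level therefore reflects storage and decay as well as synthesis, and where messages are captured by their poly(A) tails, also tail length. NMN is a precursor of NAD+, the electron carrier of the mitochondria that is also consumed by sirtuins and other enzymes.

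Oocyte markers were found in all 6 libraries. Of 18 oocyte markers in the table, 16 were at 1 FPKM or more in every sample, and their summed level lay between 2980 and 3790 FPKM, whereas no marker of blood or immune cells reached 1 FPKM. Of 21 cumulus and granulosa markers, 2 (INHBA and GREM1) reached 1 FPKM in every sample, while AMH, AMHR2 and INHA were at 0 throughout. So was HSD3B7, which entered the list only through the family name HSD3B. The cumulus marker sum was 20.4 and 15.9 FPKM in control, 14.5 and 11.6 FPKM in heat-stressed and 9.44 and 15.4 FPKM in NMN-supplemented samples, and its part in the differences below was not tested. Between 15707 and 17163 genes per sample were above 0, and mitochondrially encoded genes took between 61.7% and 74.7% of the summed FPKM. The median level of the 4713 genes was alike in all samples, from 3.11 to 3.22 FPKM. The smallest steps of the FPKM values put the relative depth of the other 5 samples between 63.3% and 86.5% of control sample 2. By this measure the heat-stressed samples, at 63.3% and 73.7%, were not the only shallow ones. The measure is rough, since in each of the 5 samples it rests on 67 to 109 genes of low level. Absolute read depth is unknown.

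By role, the 59 genes fell into 7 groups, made after the gene names were known. Receptors and signalling held 11 genes, cell cycle, spindle and DNA 10, metabolism and others 9, chromatin and transcription 8, RNA processing and ribosome assembly 8, mitochondria 7, and membranes and polarity 6. The summed level of all 59 was 719 and 699 FPKM in the control samples, 522 and 495 FPKM in the heat-stressed samples, and 719 and 695 FPKM in the NMN-supplemented samples. PIM3 and TOMM6 weigh heavily in these sums, with 170 and 178 of the 719 FPKM in control sample 1. Their NMN-supplemented means were 118% and 89.7% of control, so the near-equal sums say little about the other genes. In bulk samples of pooled oocytes, fewer oocytes with a message and less of the message in each oocyte cannot be told apart.

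**Figure D1:**
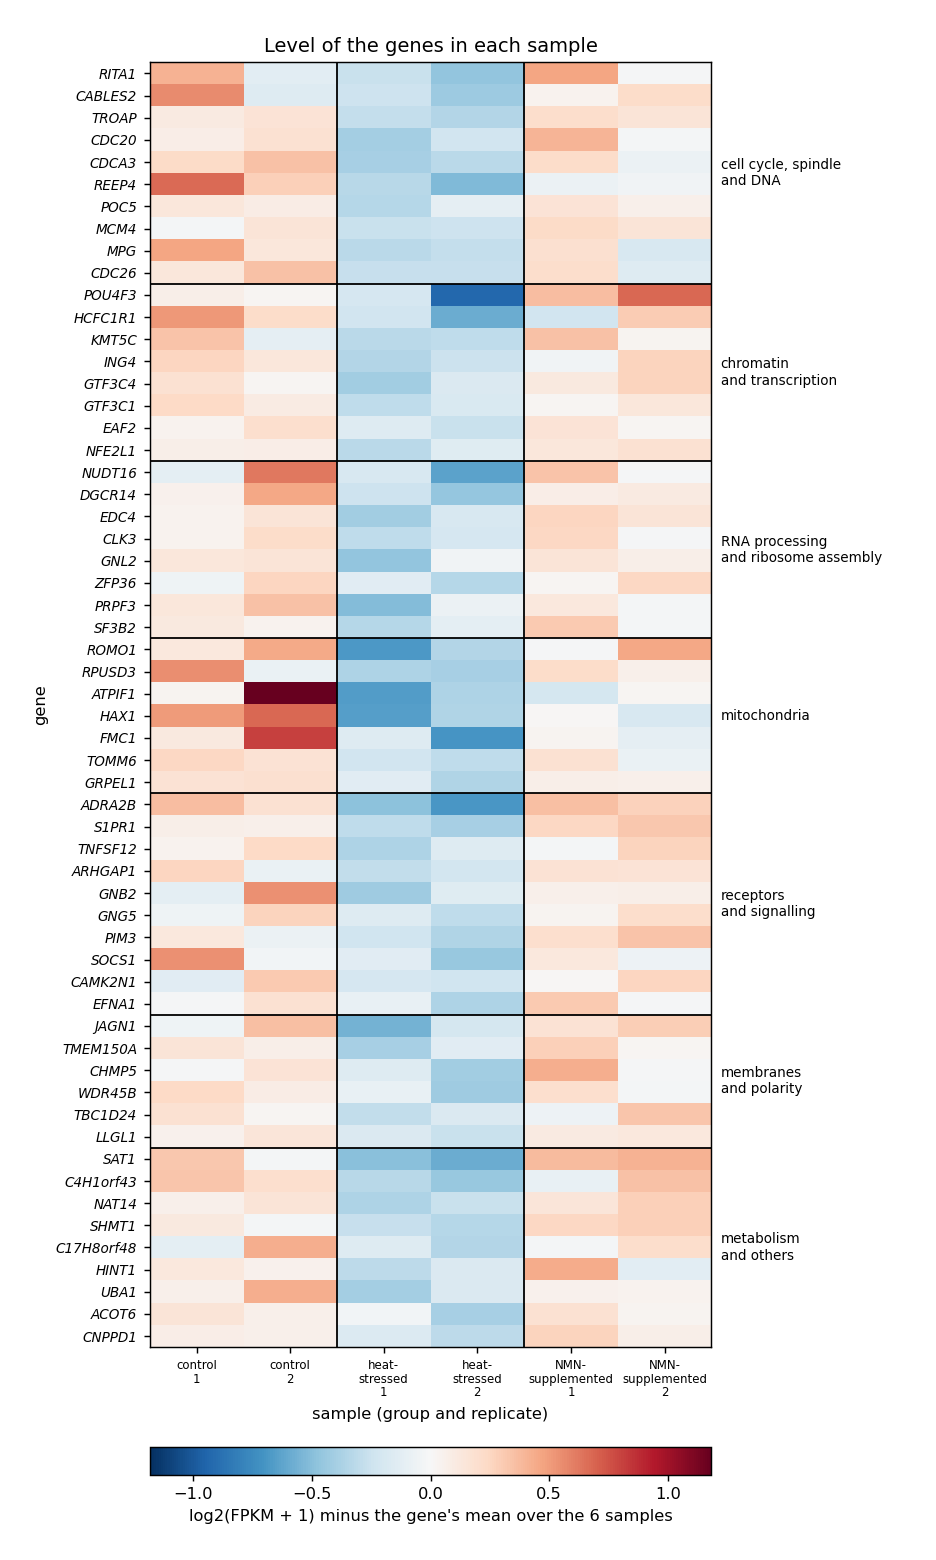
Heat map of the level of the 59 genes except 1 not reported here (vertical axis, grouped by role) in each of the 6 samples (horizontal axis). Colour is log2(FPKM + 1) minus the gene's mean over the 6 samples. Both heat-stressed columns are blue, though pale in some genes such as GNL2 in sample 2, since the rule places them below the other columns. The control and NMN-supplemented columns vary, with the strongest red in ATPIF1 in control sample 2.

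Because the levels in the heat-stressed samples chose the genes, differences from them are a description and carry no test. On the scale of the rule, control minus heat-stressed ranged from 0.30 to 1.23 with a median of 0.43, and NMN-supplemented minus heat-stressed ranged from 0.30 to 1.05 with a median of 0.42. In FPKM, the heat-stressed mean was 16.9% to 79.7% of the control mean, with a median of 64.7%. The NMN-supplemented mean was 37.6% to 162% of the control mean, with a median of 99.97%. In 31 genes it lay within 10% of control. Over all genes tested with a control mean above 0, the median was 111%, with quartiles of 78.3% and 142%. Since both groups had to exceed the heat-stressed samples, this closeness is not independent of the choice of genes. Across all 4713 genes, the fitted median difference was 0.05 for heat-stressed minus control and 0.08 for NMN-supplemented minus heat-stressed, against -0.42 and 0.41 for the 59 genes. Most differences were small. The smaller of the 2 differences of a gene was under 0.4 in 37 genes, between 0.4 and 0.5 in 12, and at least 0.5 in 10. In 20 genes the lowest of the 4 other samples was 1.2-fold or more above the higher heat-stressed sample, and in 16 it was less than 1.1-fold above it.

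Near the threshold, membership turned on hundredths of a log2 unit. The smaller difference was 0.3042 in EFNA1, 0.3035 in NFE2L1 and 0.3006 in SF3B2, the 3 genes just inside. It was 0.2978 in DPAGT1, 0.2974 in LMO4 and 0.2967 in C2H11orf84, the 3 genes just outside. Many levels were also low. The mean was under 2 FPKM in 19 genes, 2 to 5 FPKM in 19, 5 to 20 FPKM in 16 and 20 FPKM or more in 5, and 13 genes had at least 1 sample under 1 FPKM.

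**Figure D2:**
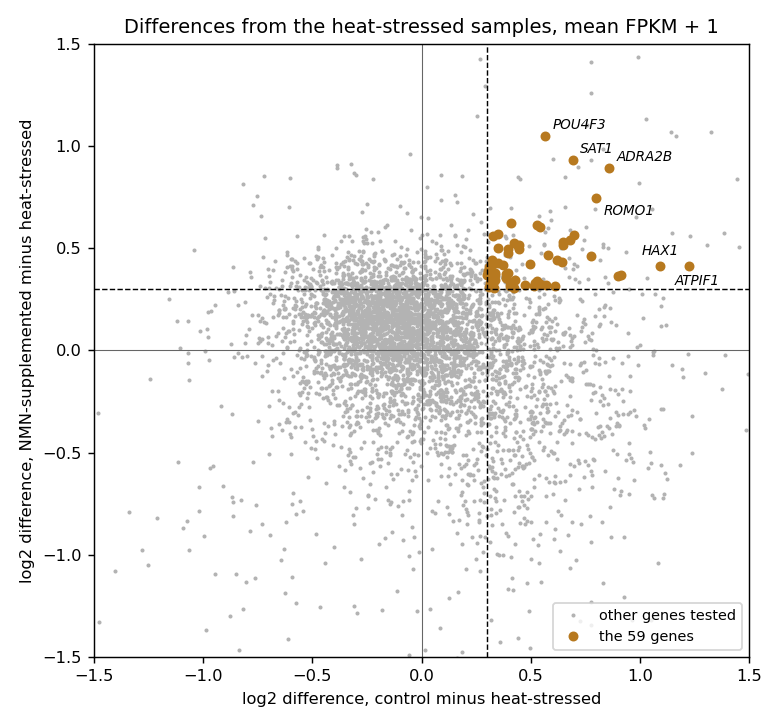
Each point is 1 of the 4713 genes, with the log2 difference of control minus heat-stressed on the horizontal axis and of NMN-supplemented minus heat-stressed on the vertical axis, both from group means with 1 FPKM added. Dashed lines mark 0.3, brown points are the 59 genes, and 45 other genes lie outside the plotted range of 1.5 in either direction. The 59 genes lie mostly close to the corner of the 2 dashed lines, with ADRA2B, ROMO1, SAT1, POU4F3, HAX1 and ATPIF1 farther out.

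The receptors include the gene whose smaller difference was the largest of the 59. ADRA2B, an adrenergic receptor, was at 2.76 and 2.31 FPKM in control, 1.09 and 0.81 FPKM in heat-stressed and 2.73 and 2.51 FPKM in NMN-supplemented samples. Its heat-stressed samples lay well below the rest and the other groups overlapped, with differences of 0.86 and 0.89. S1PR1, a sphingosine phosphate receptor, was at 1.57 and 1.54 FPKM in control, 0.979 and 0.862 FPKM in heat-stressed and 1.88 and 2.03 FPKM in NMN-supplemented samples, so that both NMN-supplemented samples stood above control.

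Downstream of receptors, PIM3, a serine/threonine kinase, had the highest mean level of the 59 genes. It was at 170 and 149 FPKM in control, 132 and 122 FPKM in heat-stressed and 179 and 197 FPKM in NMN-supplemented samples, and the NMN-supplemented samples lay above both other groups. PIM3 did not meet the rule without control sample 1, without heat-stressed sample 2 or with quantile normalization. SOCS1, an inhibitor of cytokine signalling, was at 24.6 and 16.2 FPKM in control, 14.9 and 11.8 FPKM in heat-stressed and 18.1 and 15.9 FPKM in NMN-supplemented samples. Control sample 1 of SOCS1 stood apart from control sample 2, which was close to the NMN-supplemented samples. The G protein subunits GNB2 and GNG5, the calmodulin kinase inhibitor CAMK2N1, the GTPase-activating protein ARHGAP1, the ephrin ligand EFNA1 and the cytokine TNFSF12 had smaller differences between 0.30 and 0.38. Of 65 genes of a kinase signalling list with a mean of 1 FPKM or more, GNB2, GNG5 and CAMK2N1 were among the 59, to be read, like the lists that follow, against 1.69% of all genes of that level whose names were not left out. Between NMN-supplemented and control oocytes, 12 of the 65 (18.5%) were higher and 2 (3.08%) lower at an adjusted p under 0.05 in the limma model described below, against 14.0% and 8.79% of those genes.

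Cell cycle and spindle genes were the next group. CDC20 encodes the activator of the anaphase-promoting complex, the ubiquitin ligase that starts anaphase. It was at 7.74 and 8.34 FPKM in control, 5.24 and 6.06 FPKM in heat-stressed and 9.90 and 7.13 FPKM in NMN-supplemented samples. The NMN-supplemented samples enclosed both control samples. CDC26, a subunit of the same complex, was at 1.92 and 2.38, 1.198 and 1.204, and 2.08 and 1.39 FPKM in the same order of groups, as are all triplets of pairs that follow. NMN-supplemented sample 2 of CDC26 stood close to the heat-stressed pair, and without NMN-supplemented sample 1 its smaller difference was 0.12. CDCA3, an adaptor for the destruction of a mitosis-blocking kinase, was at 32.3 and 35.3 FPKM in control, 20.7 and 21.9 FPKM in heat-stressed and 32.1 and 26.1 FPKM in NMN-supplemented samples. Both NMN-supplemented samples of CDCA3 lay between the other groups, sample 1 just under control. TROAP, a spindle-associated protein, was at 9.09 and 9.50, 6.74 and 6.37, and 9.88 and 9.45 FPKM, with close samples in each group. RITA1, a tubulin-binding regulator of Notch signalling, and CABLES2, a cyclin-dependent kinase-binding protein, had smaller differences of 0.53 and 0.47. In each of them control sample 1 was far above control sample 2, at 7.95 against 5.18 FPKM in RITA1 and 3.77 against 1.91 FPKM in CABLES2, and without control sample 1 neither met the rule. REEP4, which keeps the endoplasmic reticulum off mitotic chromosomes, was at 5.62 and 4.08, 2.32 and 1.90, and 2.98 and 3.06 FPKM, and its NMN-supplemented samples were nearer to the heat-stressed than to the control samples. The centriole protein gene POC5, the replication helicase gene MCM4 and the DNA glycosylase gene MPG completed the group, with smaller differences of 0.31 to 0.33. Of 86 genes of a meiotic cell cycle and spindle list with a mean of 1 FPKM or more, CDC20 and CDCA3 were among the 59. Over that list, 30 genes (34.9%) had a lower fitted level in heat-stressed than in control oocytes, against 43.8% of all genes of that level whose names were not left out, and 66 (76.7%) had a higher one in NMN-supplemented than in heat-stressed oocytes, against 64.7%. Against control, 12 (14.0%) were higher and 6 (6.98%) lower with NMN at an adjusted p under 0.05 (limma), near the 14.0% and 8.79% of all such genes.

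Upstream sequences of the 2 cell cycle genes on that list and of TROAP are shown because promoters of this class often carry the cell cycle genes homology region (CHR, TTTGAA) and the CCAAT box, and that of TMEM150A, a membrane protein gene with a mean of 29.7 FPKM, because it holds a heat shock element (GAANNTTC). Each is the 250 bases before the start of the longest RefSeq transcript, read from Sscrofa11.1 on the strand of the gene, 5′ to 3′, at chr6:167890588-167890837 (minus strand) for CDC20, chr5:63858655-63858904 (plus) for CDCA3, chr5:15300438-15300687 (plus) for TROAP and chr3:59166596-59166845 (plus) for TMEM150A, whose longest transcript starts 1 base inside the annotated gene. Capitals mark a match to 1 of these 3 motifs in either orientation.
CDC20: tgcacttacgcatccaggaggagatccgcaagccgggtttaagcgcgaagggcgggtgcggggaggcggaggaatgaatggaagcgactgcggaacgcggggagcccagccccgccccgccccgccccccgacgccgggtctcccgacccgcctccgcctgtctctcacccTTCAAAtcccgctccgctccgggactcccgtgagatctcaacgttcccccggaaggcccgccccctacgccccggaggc
CDCA3: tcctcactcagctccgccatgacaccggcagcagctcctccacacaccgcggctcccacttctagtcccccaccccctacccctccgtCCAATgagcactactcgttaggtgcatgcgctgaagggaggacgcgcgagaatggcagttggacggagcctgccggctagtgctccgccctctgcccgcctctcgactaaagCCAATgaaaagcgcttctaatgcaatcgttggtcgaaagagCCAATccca
TROAP: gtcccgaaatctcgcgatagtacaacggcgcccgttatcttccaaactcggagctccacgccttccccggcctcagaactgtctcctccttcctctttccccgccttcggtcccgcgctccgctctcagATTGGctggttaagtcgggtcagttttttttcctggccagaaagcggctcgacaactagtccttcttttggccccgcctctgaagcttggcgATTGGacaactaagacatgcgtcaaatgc
TMEM150A: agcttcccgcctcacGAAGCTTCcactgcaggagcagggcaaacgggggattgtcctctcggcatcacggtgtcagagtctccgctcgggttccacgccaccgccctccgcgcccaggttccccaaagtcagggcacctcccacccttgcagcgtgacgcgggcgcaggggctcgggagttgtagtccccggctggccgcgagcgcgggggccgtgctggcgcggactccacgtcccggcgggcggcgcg
The CDC20 window holds 1 CHR match, 79 to 74 bases before the start, and the CDCA3 and TROAP windows hold 3 and 2 CCAAT matches. Over the 59 windows, with both strands searched, a CHR match stood in 3 (5.08%) against 11.5% of the windows of 4712 genes, a CCAAT box in 18 (30.5%) against 34.6%, and the heat shock element in 2 (CDC26 and TMEM150A, 3.39%) against 5.18%. The GC box GGGCGG stood in 37 windows (62.7%) against 51.0%, and the windows had a median GC content of 64.4% against 59.2%. The TATA motif TATAAA stood in 3.39% against 8.53%, the E-box CACGTG in 6.78% against 7.41%, and the cyclic AMP response element TGACGTCA in 3 windows (DGCR14, GTF3C1 and NUDT16, 5.08%) against 2.36%. A match describes letters only.

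ATPIF1 and HAX1, of the mitochondrial genes, had the largest control minus heat-stressed differences of the 59, at 1.23 and 1.09. REEP4, of the cell cycle group, followed at 0.91, while TOMM6 and GRPEL1, also mitochondrial, lay near the median of 0.43. ATPIF1, the inhibitor of ATP synthase, was at 0.994 and 3.43 FPKM in control, 0.230 and 0.519 FPKM in heat-stressed and 0.686 and 0.980 FPKM in NMN-supplemented samples. Control sample 2 stood far above every other sample, NMN-supplemented sample 2 lay just below control sample 1, and NMN-supplemented sample 1 lay between it and the heat-stressed samples. HAX1, an inhibitor of apoptosis, was at 5.90 and 6.76 FPKM in control, 2.09 and 2.80 FPKM in heat-stressed and 3.91 and 3.25 FPKM in NMN-supplemented samples. In HAX1 the 3 groups were separate, with the NMN-supplemented samples between the others and at 56.6% of the control mean. ROMO1, a modulator of reactive oxygen species, was at 1.22 and 1.78, 0.269 and 0.605, and 1.02 and 1.79 FPKM, with control and NMN-supplemented samples overlapping. FMC1, an assembly factor of ATP synthase, was at 2.201 and 4.19, 1.67 and 0.826, and 2.04 and 1.75 FPKM, and its higher heat-stressed sample came close to the lower NMN-supplemented sample. TOMM6, a subunit of the outer membrane translocase, was abundant, at 178 and 169 FPKM in control, 128 and 121 FPKM in heat-stressed and 169 and 142 FPKM in NMN-supplemented samples. Its annotated transcript, on chromosome 7 from 36976478 to 36976878, lies wholly within PRICKLE4 on the same strand, so reads of the 2 genes may have been divided between them. RPUSD3, a pseudouridine synthase, was at 1.86 and 0.843, 0.516 and 0.489, and 1.26 and 1.04 FPKM, with overlap between control and NMN-supplemented samples. Its mean of 1.001 FPKM was just above the minimum of 1, and without control sample 1 it did not meet the rule. GRPEL1, a cofactor of the matrix chaperone, was at 13.8 and 14.1, 11.0 and 9.32, and 12.9 and 12.8 FPKM, with NMN-supplemented samples below control and above heat-stressed. The fitted level of all 7 mitochondrial genes, grouped after their names were known, was lower in NMN-supplemented than in control oocytes, with a median difference of -0.16 and only HAX1 past an adjusted p of 0.05 in that model, which 21.5% of all genes tested passed. Among all 59 genes, the NMN-supplemented mean lay below the control mean in 30. Of 58 genes of a mitochondrial function list with a mean of 1 FPKM or more, TOMM6 alone was among the 59, and 5 of the 58 (8.62%) were higher and 10 (17.2%) lower with NMN than in control at an adjusted p under 0.05 (limma), against 14.0% and 8.79%. The median difference of NMN-supplemented minus control over these 58 genes was -0.0033, against 0.11 over all genes tested.

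**Figure D3:**
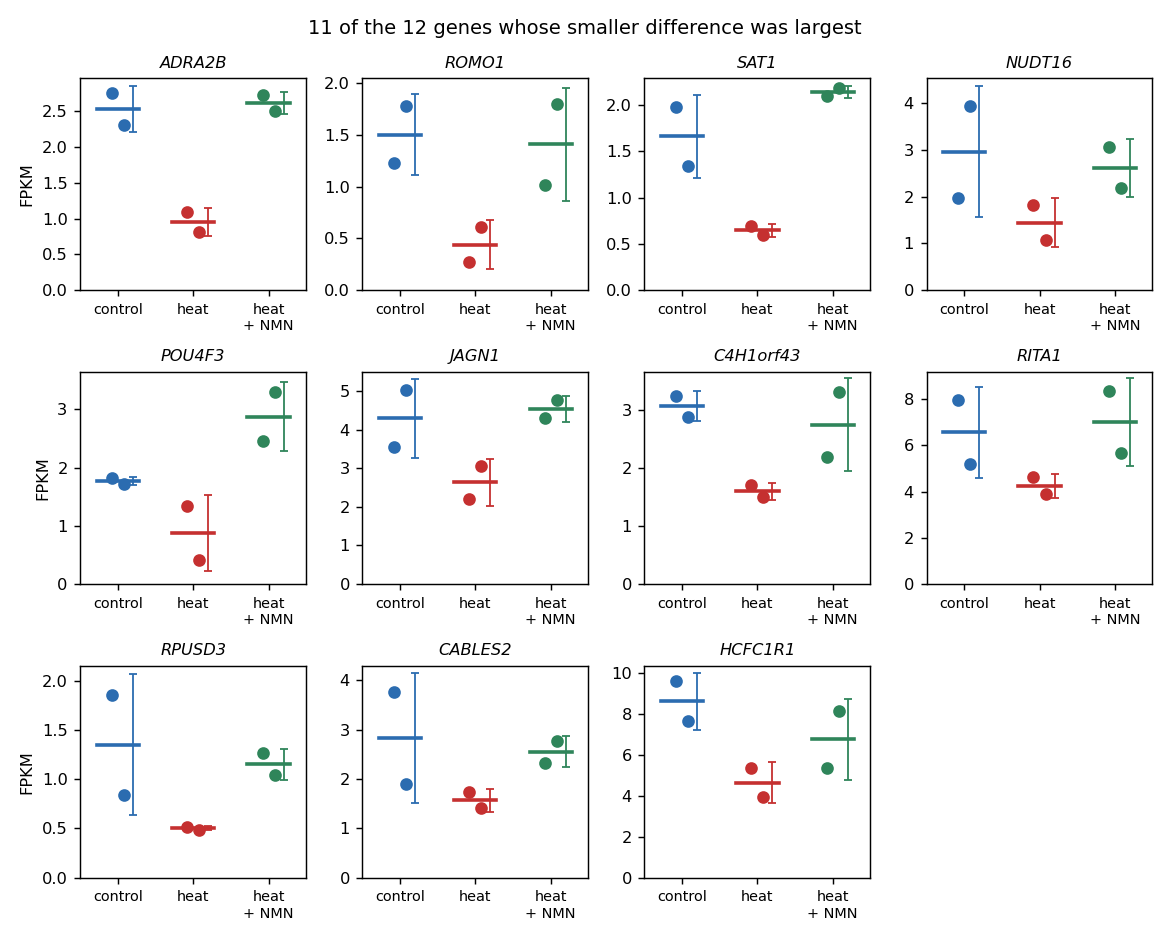
FPKM (vertical axes, from 0) of 11 of the 12 genes whose smaller difference was largest in each of the 3 groups. Points are samples, horizontal lines group means and error bars the SD of 2 samples. Both heat-stressed points lie below all others in each panel, as the rule requires, while the distance between the 2 control points is wide in NUDT16, RPUSD3 and CABLES2.

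Among chromatin and transcription genes, POU4F3, a transcription factor known from sensory hair cells, had the largest difference from the NMN-supplemented samples. It was at 1.83 and 1.72 FPKM in control, 1.34 and 0.408 FPKM in heat-stressed and 2.45 and 3.30 FPKM in NMN-supplemented samples. The NMN-supplemented samples lay above both control samples, and without heat-stressed sample 2 the gene did not meet the rule. HCFC1R1, a regulator of the cofactor HCFC1, was at 9.61 and 7.63, 5.34 and 3.92, and 5.35 and 8.15 FPKM. NMN-supplemented sample 1 of HCFC1R1 was level with the higher heat-stressed sample. KMT5C, a histone H4 lysine methyltransferase, was at 7.51 and 5.26, 4.42 and 4.46, and 7.60 and 5.91 FPKM, and control and NMN-supplemented samples overlapped. GTF3C1 and GTF3C4 encode subunits of the factor that directs RNA polymerase III to transfer RNA genes. Their smaller differences were 0.32 and 0.39. ING4, a histone mark reader, EAF2, an elongation factor partner, and NFE2L1, a transcription factor of proteasome genes, had smaller differences of 0.42, 0.30 and 0.30. Of 78 genes of a transcription machinery list with a mean of 1 FPKM or more, GTF3C4, GTF3C1 and NFE2L1 were among the 59, and of 63 chromatin regulators KMT5C was.

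The RNA group ran from splicing to decay. NUDT16, a hydrolase that removes caps from RNA and also stands on a list of NAD metabolism, was at 1.98 and 3.96 FPKM in control, 1.82 and 1.08 FPKM in heat-stressed and 3.06 and 2.18 FPKM in NMN-supplemented samples. Its control samples differed by more than its group means, and without control sample 2 it did not meet the rule. DGCR14, a splicing-associated protein, was at 2.04 and 3.04, 1.47 and 1.14, and 2.11 and 2.16 FPKM. It met the rule whichever sample was left out. ZFP36, which binds AU-rich messages and marks them for decay, was abundant, at 41.8 and 51.8 FPKM in control, 39.5 and 34.2 FPKM in heat-stressed and 44.0 and 51.6 FPKM in NMN-supplemented samples, and heat-stressed sample 1 lay close to control sample 1. The splicing factors SF3B2 and PRPF3, the kinase of splicing factors CLK3, the decapping scaffold EDC4 and the nucleolar GTPase GNL2 had smaller differences of 0.30 to 0.39. On a splicing and mRNA export list, 3 of 108 genes with a mean of 1 FPKM or more were among the 59, and on a list of mRNA storage and decay 2 of 56.

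Genes of membranes and metabolism made up the rest. SAT1, the rate-limiting enzyme of polyamine breakdown, was at 1.98 and 1.34 FPKM in control, 0.698 and 0.593 FPKM in heat-stressed and 2.09 and 2.19 FPKM in NMN-supplemented samples. All 3 groups of SAT1 were separate, with NMN-supplemented samples highest. JAGN1, an endoplasmic reticulum protein of the secretory pathway, was at 3.56 and 5.02, 2.21 and 3.07, and 4.29 and 4.78 FPKM, with the NMN-supplemented between the control samples. SHMT1, the cytosolic enzyme that passes a carbon from serine to folate, was at 4.75 and 4.22, 3.40 and 3.21, and 5.31 and 5.44 FPKM, and its NMN-supplemented samples were above all others. C4H1orf43, an open reading frame gene, was at 3.25 and 2.89, 1.70 and 1.49, and 2.19 and 3.32 FPKM, and NMN-supplemented sample 1 fell between the other groups. TMEM150A was at 32.9 and 30.8, 22.1 and 26.7, and 35.9 and 29.9 FPKM. Its NMN-supplemented samples enclosed the control samples. LLGL1, a cell polarity scaffold, and WDR45B, an autophagy protein, had means of 15.4 and 15.5 FPKM and smaller differences of 0.31 and 0.34. UBA1, which activates ubiquitin at the head of that pathway, was at 1.34 and 2.04, 0.705 and 0.997, and 1.33 and 1.32 FPKM, with NMN-supplemented samples just below the lower control sample. The smaller difference was 0.42 in NAT14, an acetyltransferase family member, and 0.31 to 0.35 in CHMP5, a membrane scission protein, TBC1D24, a vesicle traffic protein, HINT1, a nucleotide hydrolase, ACOT6, an acyl-CoA thioesterase family member, CNPPD1, a cyclin-like protein, and C17H8orf48, an open reading frame gene.

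Across 24 gene lists of oocyte and stress biology, 21 of the 59 genes stood on a list and 38 on none. No gene of the lists of chaperones and heat response (42 genes with a mean of 1 FPKM or more), redox defence (29), cell death and p53 (26), DNA damage response (51), translation factors (32) or lysosome and autophagy (35) was among the 59, and neither was any oocyte marker. Genes of the DNAJ co-chaperone family could not be, since their prefix was left out. At a share of 1.69% of all genes of that level, 0 on lists of these sizes says nothing about them. HAX1, ROMO1, WDR45B, MPG and GRPEL1, whose known roles lie in these processes, stand on none of the lists.

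The order of control and NMN-supplemented samples was not set by the rule, which asks only that each lie above the heat-stressed samples, although it used the same values. The comparison of NMN-supplemented with control oocytes was made in 1 limma model of all 4713 genes, with Benjamini-Hochberg adjustment over them. At an adjusted p under 0.05, 1 of the 59 genes was called, HAX1, against 1015 of all genes tested (21.5%, of which 583 or 12.4% were higher and 432 or 9.17% lower with NMN). At an unadjusted p under 0.05, 2 were called (HAX1 and REEP4), against 1948 (41.3%). The 2 NMN-supplemented samples lay above both control samples in 6 of the 59 and below both in 8, which is 23.7%, whereas 69.9% of all genes tested had no overlap (43.5% above and 26.4% below). Since a gene had to exceed the heat-stressed samples in both groups to be taken, these lower shares are not independent of the choice of genes. The same holds for the median difference, which was -0.0017 for the 59 genes against 0.11 for all genes tested.

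HAX1 was lower with NMN than in control by a log2 difference of -0.68 (SE 0.16, adjusted p = 0.0389 with limma), with both NMN-supplemented samples below both control samples. Over the alternatives its adjusted p ranged from 0.0367 to 0.168, and the call was lost with the replicate number as a block (adjusted p = 0.0674), with no filter on low levels (adjusted p = 0.132), and without either control or either NMN-supplemented sample (adjusted p = 0.0766 to 0.168, the lone sample being assumed to vary like the other groups). REEP4 differed by -0.53 (SE 0.17, adjusted p = 0.0709 with limma). For ATPIF1 the difference was -0.70 (SE 0.38, adjusted p = 0.219 with limma). Its mean of 1.14 FPKM passed the minimum of 1 only through control sample 2, without which it is 0.682 FPKM. FMC1 at -0.50 (adjusted p = 0.249) and HCFC1R1 at -0.33 (adjusted p = 0.337) were next on that side. On the other side, the largest were POU4F3 at 0.47 (adjusted p = 0.227), SAT1 at 0.25 (adjusted p = 0.272), PIM3 at 0.24 (adjusted p = 0.207), SHMT1 at 0.22 (adjusted p = 0.198) and S1PR1 at 0.21 (adjusted p = 0.219), all by limma and none past the threshold. The 95% interval of the difference held 0 in 57 genes. Its half-width ran from 0.26 to 0.95 with a median of 0.40, so that differences of 0.3, the minimum of the rule, could have been missed in most genes. In 39 genes the whole interval lay within 0.6 of 0 in either direction. For a single gene, an exact permutation test of 2 against 2 samples could not give a two-sided p below 0.333.

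**Figure D4:**
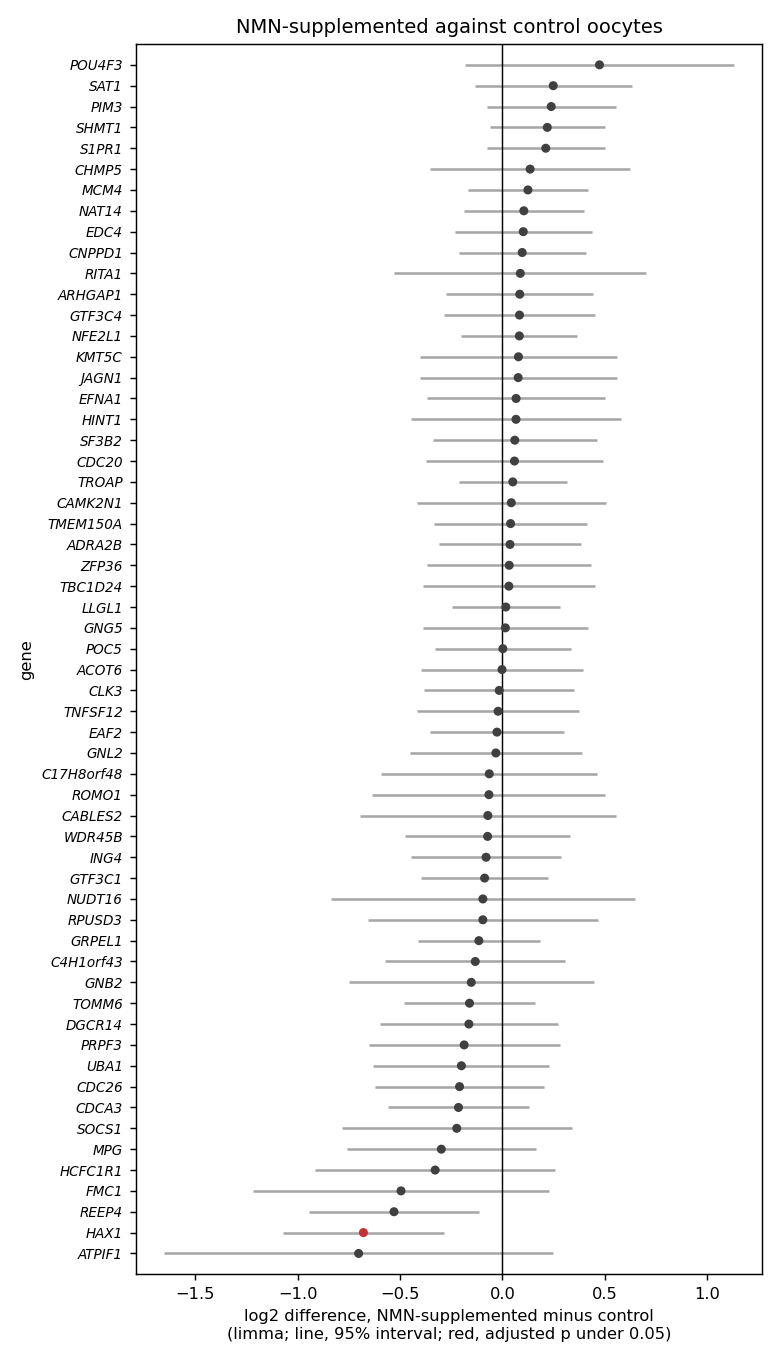
Log2 difference of NMN-supplemented minus control oocytes (horizontal axis) for the 59 genes except 1 not reported here (vertical axis), from the limma model. Points are estimates, lines 95% intervals, and red marks HAX1, the gene with an adjusted p under 0.05. The intervals of HAX1 and REEP4 lie wholly below 0 and the others drawn cross it.

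The 2 contrasts the rule used had an adjusted count of 0 over all genes tested (0.0%) in the same model. At an unadjusted p under 0.05 it gave 1074 genes (22.8%) for heat-stressed against control and 641 (13.6%) for NMN-supplemented against heat-stressed oocytes. These contrasts share the heat-stressed samples, so a pair of low heat-stressed values raises both differences of a gene together. Heat-stressed sample 1 was the lower of the pair in 28 genes and sample 2 in 31. The larger difference was from control in 30 genes and from NMN-supplemented samples in 29. The opposite pattern, higher in both heat-stressed samples than in all others with both differences reaching 0.3 in size, was met by 32 genes, and 3.9% of all genes tested had both heat-stressed samples above the rest whatever the size.

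Transcripts of the 59 genes were rich in G and C and rather short. The median GC content of the longest RefSeq transcript was 57.3%, against 47.5% over all genes tested and 46.7% in the 32 genes with the opposite pattern, and 51 of the 59 lay above the median of all genes. The median length was 2023 nt against 2941 nt, with 6 exons in both. When the genes tested were divided into 5 bins of equal size by GC content, the numbers of the 59 rose from 2 in the lowest bin through 4, 7 and 14 to 32 in the highest, which is 0.212% to 3.39% of the genes of a bin. The heat-stressed samples differed from control along the same axis in all genes tested, with a median of 0.25 in the bin lowest in GC, 0.14, 0.06 and -0.10 in the next 3, and -0.21 in the highest. For NMN-supplemented minus heat-stressed the medians were 0.12, 0.10, 0.06, 0.06 and 0.02. When the trends with GC content and length were removed from each sample, the median control minus heat-stressed difference of the 59 went from 0.43 to 0.30, and their NMN-supplemented minus heat-stressed difference from 0.42 to 0.47. Of the 59 genes, 22 then still met the rule, together with 10 others. PIM3, TMEM150A, ZFP36 and CDC20 were among the 37 that did not, with control minus heat-stressed differences of 0.12, 0.06, 0.05 and 0.15. The removal of these trends was chosen after the GC pattern was seen. The part of GC content and length in the selection beyond these values was not tested.

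**Figure D5:**
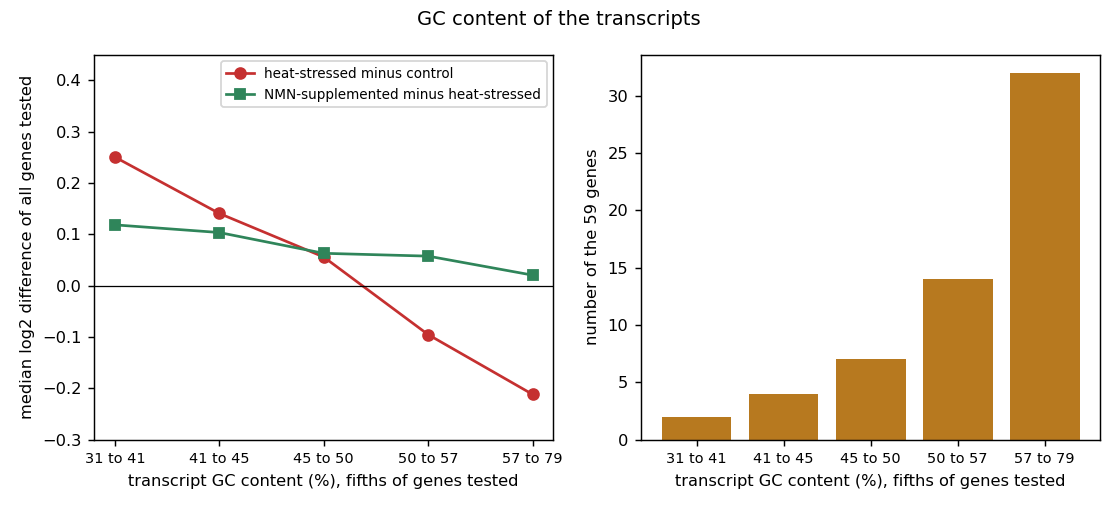
Left, median log2 difference of all genes tested in each of 5 bins of transcript GC content, for heat-stressed minus control (red circles) and NMN-supplemented minus heat-stressed (green squares). Right, number of the 59 genes in each bin, from 2 in the lowest to 32 in the highest. The red line falls from 0.25 to -0.21 while the green line stays between 0.02 and 0.12.

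Membership depended on single samples. The rule applied without heat-stressed sample 1 was met by 125 genes and without sample 2 by 157, since fewer values then had to lie below the rest, and 42 and 40 of the 59 were among them. Without a control sample 46 (sample 1) and 45 (sample 2) of the 59 still met it, and without an NMN-supplemented sample 41 (sample 1) and 47 (sample 2). Whichever sample was left out, 8 genes met the rule each time, namely ADRA2B, ROMO1, SAT1, JAGN1, TROAP, DGCR14, NAT14 and S1PR1. With median scaling, quantile normalization and removal of the GC and length trends, 19 genes met it each time, and ADRA2B, ROMO1, SAT1, JAGN1 and DGCR14 did so under every one of these settings.

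The genes were spread over 16 chromosomes, with 9 on chromosome 6, 8 on chromosome 3 and 6 on chromosome 4. A gap of under 200000 nt separated 5 pairs of them. The closest were RPUSD3 and JAGN1 on chromosome 13, 21080 nt apart on opposite strands, and HAX1 and C4H1orf43 on chromosome 4, 49030 nt apart, with no other tested gene between them in either pair. SHMT1 and LLGL1 on chromosome 12 were 51885 nt apart, KMT5C and NAT14 on chromosome 6 113622 nt, and CDCA3 and ING4 on chromosome 5 165886 nt. Other annotated genes overlapped 19 of the 59. In 5 of these the overlapping gene had a mean of 1 FPKM or more, and strand use in the counting is not given in the sources used here, so reads of such pairs cannot be told apart. For HCFC1R1 the partner THOC6 went the other way, at 2.93 and 1.2 FPKM in control, 3.46 and 4.38 FPKM in heat-stressed and 2.93 and 2.43 FPKM in NMN-supplemented samples. SMCR8, the partner of SHMT1, was at 22.7 and 16.1, 15.9 and 18.1, and 24.8 and 20.5 FPKM, with overlapping control and heat-stressed samples. The other partners were PRICKLE4 of TOMM6, ANKDD1B of POC5 and RETREG2 of CNPPD1.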

How the data were processed

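Libraries of mRNA from 6 samples of porcine oocytes were sequenced. The series text and the methods name different Illumina instruments. The methods state trimming with cutadapt and alignment with tophat2 to susScr11, and the submitters' processing notes list Cufflinks 2.2.1, Cuffnorm and Cuffdiff without their roles. The authors deposited 1 FPKM value per gene and sample, whose scaling between samples is not given in the sources used here. Their fold changes, p-values and lists of differentially expressed genes, and FPKM averaged by group, were not used.

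Levels were log2-transformed after adding 1 FPKM, which understates the change of low genes. Genes with a mean of 1 FPKM or more were fitted with limma 3.58.1 in R 4.3.3 (3 groups, all 6 samples, empirical Bayes with a variance trend, two-sided tests, Benjamini-Hochberg adjustment), after tests on simulated data. Samples were grouped by their treatment labels. FPKM hold no counts, so no count model and no interval for depth was used. Values of a group are given in the order of replicate 1 and 2, and groups in the order control, heat-stressed, NMN-supplemented. The members, gene lists and tests were chosen with earlier results of these data known.

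Named with values were the 12 members with the largest smaller difference, the 8 highest in mean FPKM, the 5 at each end of NMN minus control, members on a gene list, and 3 genes on either side of the threshold. The values of 1 member are not reported here, and it stays in all counts. All other genes named with values were chosen after their values were seen. Gene models, lengths and sequences came from RefSeq on Sscrofa11.1, the same build, where all 59 genes matched by name and position. Python 3.11.15, pandas 2.3.3 and matplotlib 3.10.9 were used. Alternatives were a pseudocount of 0.1 FPKM, minima of 0, 2 and 5 FPKM, a difference of 0.6, median scaling, quantile normalization, removal of GC and length trends, a replicate block, only the compared groups, no variance trend, an unadjusted p, and each sample left out in turn.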

Additional observations from a re-analysis of the deposited data

How the results depend on the processing

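The number of genes meeting the rule was 59, and became 97 with a pseudocount of 0.1 FPKM, 21 with a mean of 5 FPKM or more, 3 with a difference of 0.6 or more, and 32 with GC and length trends removed, a setting chosen after seeing the data, as was a mean of 2 FPKM or more (40 genes). Leaving out 1 sample gave 59 to 157. For NMN-supplemented against control oocytes, 1 of the 59 genes and 1015 of all genes tested were called, and leaving out 1 sample gave 0 to 1 and 0 to 798. With no filter both counts were 0 by limma (2 and 3700 at an unadjusted p under 0.05), with a minimum of 5 FPKM, at which 21 of the 59 and not HAX1 were tested, they were 0 and 546, and at an unadjusted p under 0.05 they were 2 and 1948. The single call without control sample 1 was ATPIF1 and not HAX1, with 1 control sample assumed to vary like the other groups, and ATPIF1 passed the filter only through that sample. With the replicate number as a block they were 0 and 445 (192 higher and 253 lower). Same-numbered samples did not deviate together (correlations of -0.03, -0.01 and 0.008 across genes), so the numbers were not taken as pairs. Among values of the members' smaller difference under other settings, 513 stayed within the SD between replicates and 77 moved by more. None changed sign, which the rule fixes wherever 1 sample was left out or the pseudocount was changed, so this is no test. The cause of these shifts was not tested beyond the construction of each setting. With 2 samples a group and no read counts, the median half-width of a member's 95% interval was 0.40 on the log2 scale.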
